A study of Mus musculus with 17 samples.

Results

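The cells described here are monocytic cells (Mo) from the spleens of tumour-bearing mice 6 weeks after tumour injection, compared with the same cells from naive mice. They make up 6 of the 17 arrays of the series, 3 in each group, chosen by their sample labels alone. All 6 samples were CD11b+ cells with much Ly-6C and little Ly-6G on their surface, taken by magnetic beads and then flow sorting out of spleens of female BALB/c mice, which were pooled. The tumour-bearing mice had been given 100000 Her-2/CT26 cells under the skin, a BALB/c colon carcinoma line (CT26) carrying Her-2. The naive mice had no tumour. No label gives an age, a batch or a mouse, or tells whether replicates were separate pools. The p-values therefore measure only how far arrays spread, with 1 estimate per gene shared by all 17 arrays, and that spread may be technical. Total RNA was hybridised to Affymetrix Mouse Gene 1.0 ST arrays, and values are log2 intensities.

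Myeloid-derived suppressor cells are immature myeloid cells that build up in tumour-bearing hosts and can hold back T cell responses. Their monocytic form shares the CD11b+ Ly-6C high surface of classical monocytes, which leave the bone marrow with the help of the chemokine receptor CCR2. In the steady state such monocytes turn into Ly-6C low patrolling monocytes, a step that needs the nuclear receptor NR4A1, or enter tissues and mature into macrophages and dendritic cells. The study asked what changes in suppressor cells as a tumour grows.

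The labelled cell type was checked against defining genes other than those of Ly-6C, since Ly6c1 and Ly6c2 lie on features with several gene symbols and were not measured here. Ccr2 lay at 12.06, 12.24 and 12.32 in the naive arrays and at 12.26, 12.10 and 12.12 at 6 weeks, and Itgam, which encodes CD11b, lay between 11.19 and 11.59 in all 6 arrays. Ly6g, the marker of the excluded neutrophils, lay at 5.97, 6.05 and 6.18 in naive arrays and at 6.56, 8.95 and 6.43 at 6 weeks. Replicate 2 of the 6-week group thus stood apart in Ly6g and also in the neutrophil genes Retnlg (8.07 against 5.55 and 5.70) and Stfa3 (8.26 against 5.13 and 5.31). Replicate 1 of the 6-week group lay nearest to the naive arrays: on the first principal component, which held 85.1% of the variance, the naive arrays lay at -43.7, -38.2 and -22.4 and the 6-week arrays at 10.3, 42.3 and 51.7.

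Of 19938 genes tested with limma, 9204 (46.2%) passed at an adjusted p below 0.05, with 4341 higher (21.8%) and 4863 lower (24.4%) at 6 weeks. At least 2-fold changes were found in 643 genes higher (3.22%) and 135 lower (0.677%). The direction of small changes followed the level of the gene. Genes at a mean log2 level between 5 and 6 were higher in 1.75% and lower in 33.3% of cases, whereas of the 5295 genes at a level of 8 or more, 50.6% were higher and 8.27% lower, with a median change of 0.32. At least 2-fold changes made up 7.1% higher and 1.38% lower of these bright genes. Olfactory and vomeronasal receptor genes, which these cells are not known to use, had a median change of -0.32, with 591 of 1190 lower and 0 higher. Those 591 falls numbered 343 or 158 without naive replicate 2 or 1, 232 or 159 without 6-week replicate 2 or 3, 173 after median centring, 134 after quantile normalization and 48 with intensities below 100 raised to 100. The counts of each list below stand against the shares of 21.8% higher and 24.4% lower over all genes, and 50.6% and 8.27% over bright ones. The choice of scaling moved the split between rises and falls: it was 5805 higher and 1379 lower after centring each array on its median, 3487 and 1754 after quantile normalization over all 17 arrays, and 3615 and 1681 with values below an intensity of 100 raised to 100. The total of 9204 fell to 5063 or 5753 when replicate 1 or 2 of the naive group was left out, and to 5358 or 4475 when replicate 2 or 3 of the 6-week group was.

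**Figure D1:**
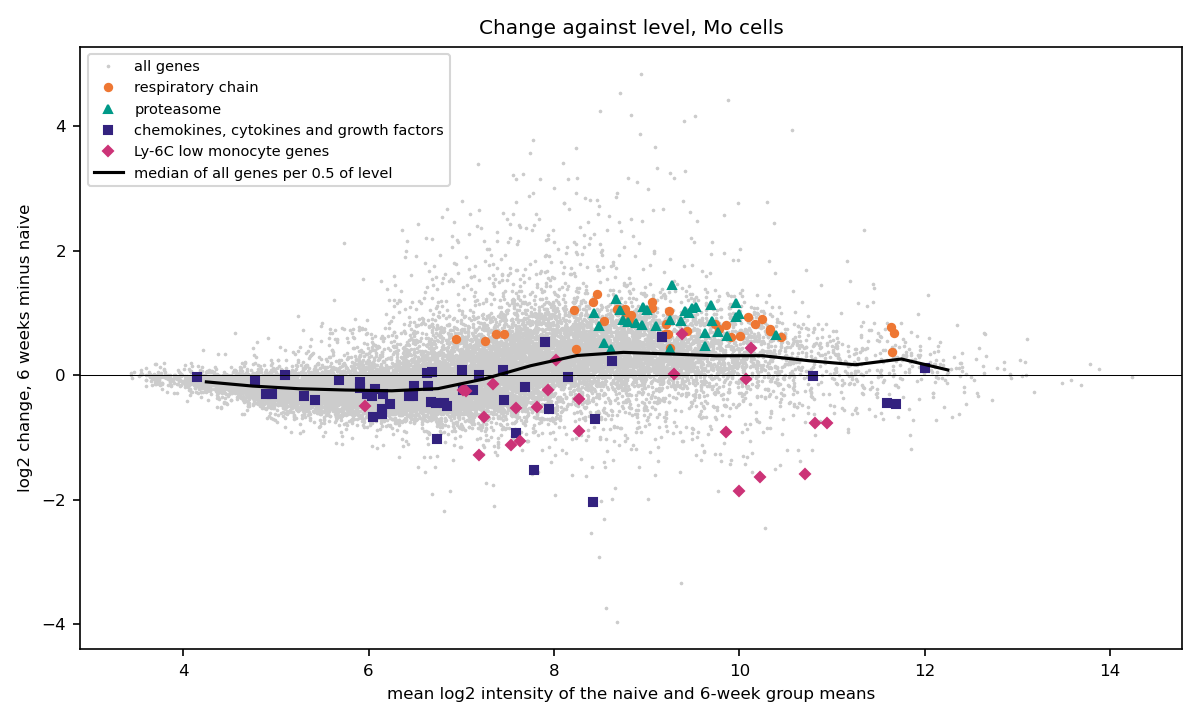
Change at 6 weeks against naive (log2, vertical axis) by the mean log2 intensity of the gene (horizontal axis) in Mo cells, with grey points for all 19938 genes coloured symbols for 4 gene lists (respiratory chain, proteasome, chemokines and cytokines, Ly-6C low monocyte genes) and a line for the median of all genes in steps of level. The line is below 0 among dim genes and above 0 among bright genes; respiratory chain and proteasome genes lie above it and most Ly-6C low monocyte genes below it.

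The largest rises, leaving out the granule, neutrophil, mitosis, replication, interferon and MHC class II lists, included a matrix proteoglycan, a lipopolysaccharide carrier, an acute phase gene and a chemokine receptor. Vcan, the gene of versican, rose from 6.15, 6.66 and 6.77 to 11.33, 11.37 and 11.37, a 28.5-fold increase (log2 4.83 ± 0.22 SE, adjusted p = 1.24e-09). The 3 arrays at 6 weeks lay within 0.04 of each other, and the 3-week arrays of the series lay between the groups at 8.51, 9.76 and 9.31. Lbp, on chromosome 2 (158306493 to 158332852, GRCm38.p6), encodes the protein that hands lipopolysaccharide to CD14. It lay at 7.14, 7.43 and 7.07 in naive arrays and at 9.51, 10.73 and 10.93 at 6 weeks, a 9.04-fold increase (3.18 ± 0.25, adjusted p = 2.36e-07). Saa3, an acute phase gene of macrophages (chromosome 7, 46711998 to 46719615), rose from 6.66, 6.42 and 6.40 to 7.74, 10.03 and 10.75 (3.01 ± 0.45, adjusted p = 0.000133). Its 6-week arrays were widely spread, and the change was 2.39 without replicate 3 and 3.90 without replicate 1, but no 6-week array reached down to a naive one. Ccr1, a receptor for inflammatory chemokines, rose from 5.80, 5.85 and 6.42 to 8.82, 9.72 and 8.97 (3.15 ± 0.25, adjusted p = 2.55e-07). The naive values of Ccr1 lie below log2 of 100, and with such values raised to 100 its change was 2.53.

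Fkbp5, a co-chaperone of the glucocorticoid receptor and itself induced by glucocorticoids, rose 7.91-fold (2.98 ± 0.15, adjusted p = 1.9e-09). Its naive arrays lay at 7.63, 7.54 and 7.41 and its 6-week arrays at 10.07, 10.83 and 10.62. The 3-week arrays (7.57, 7.65 and 7.81) lay at the naive level, and below every 6-week array. Rnase2a, of the eosinophil ribonuclease family, rose from between 6.19 and 6.32 to between 8.82 and 9.87 (3.16 ± 0.24). The remaining 9 of the 15 largest rises chosen this way were mostly histone and division genes that those lists did not hold.

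The largest falls outside the same lists included Prr5l, which encodes a partner of the kinase complex mTORC2, from 8.24, 8.29 and 8.67 to 7.06, 6.06 and 5.78, a 4.29-fold decrease (-2.10 ± 0.23, adjusted p = 7.18e-06). Sdc3, a heparan sulphate proteoglycan of the cell surface, fell from 9.55, 9.39 and 9.63 to 8.11, 7.20 and 7.20 (-2.02 ± 0.25, adjusted p = 1.98e-05). Slc46a3, a lysosomal transporter gene, fell from 9.42, 9.67 and 9.79 to 8.18, 7.33 and 7.39 (-1.99 ± 0.19), and Pltp, the phospholipid transfer protein gene, from 9.80, 9.91 and 9.97 to 8.68, 8.06 and 8.12 (-1.60 ± 0.13). Ifi205, an interferon-inducible gene outside the list used here, had the largest fall outside those lists (-2.53 ± 0.44), with replicate 1 at 8.80 against 6.51 and 6.11, and the fall was -3.36 without that replicate. In all 4 of the genes given with array values before it, replicate 1 was the 6-week array closest to the naive ones, and the groups did not overlap. Cd209a, a lectin gene of monocyte-derived dendritic cells, fell by 1.75, and Gimap4, a lymphocyte GTPase gene, by 1.72.

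**Figure D2:**
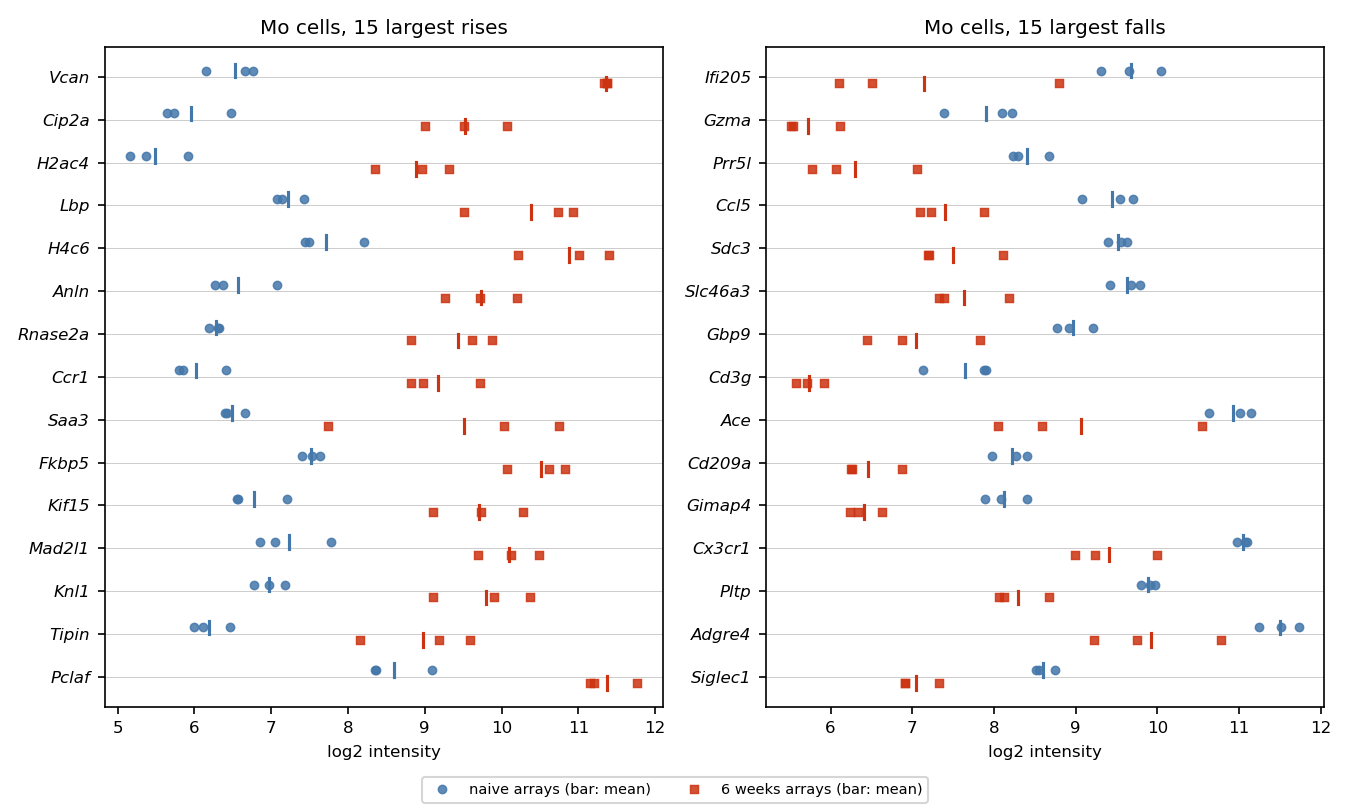
Log2 intensity (horizontal axis) of the 15 genes with the largest rises and the 15 with the largest falls in Mo cells, leaving out the granule, neutrophil, mitosis, replication, interferon and MHC class II lists. Circles are naive arrays, squares 6-week arrays and bars group means; in each gene the groups are apart, and in most falls 1 square, replicate 1, lies closest to the circles.

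Among paired and inhibitory receptors, 12 of 40 were higher (30%, against 21.8% of all genes) and 8 lower (20%, against 24.4%), and 10 of the 12 rises were at least 2-fold. Of the 22 members at a level of 8 or more, 31.8% were higher and 27.3% lower. Among all genes at that level the shares were 50.6% and 8.27%. Clec5a, a lectin that signals through the adaptor DAP12, rose from 8.30, 8.17 and 8.66 to 10.11, 10.74 and 10.88 (4.59-fold, 2.20 ± 0.22, adjusted p = 2.37e-06). Clec4e, which encodes Mincle, a receptor for glycolipids and products of dead cells, rose from 8.03, 7.52 and 7.63 to 9.42, 9.94 and 9.99 (2.06 ± 0.23). Trem1, an amplifier of inflammatory signals that also uses DAP12, rose from 6.37, 6.55 and 6.31 to 8.06, 8.36 and 8.13 (1.77 ± 0.13, adjusted p = 1.22e-07), and the inhibitory receptor gene Cd300lf from 7.28, 7.20 and 7.50 to 8.88, 9.67 and 9.27 (1.95 ± 0.18). In these 4 genes every 6-week array lay above every naive array. Trem1 is also in the neutrophil list, and without 6-week replicate 2, the array with high Ly6g, its change was 1.69, that of Clec4e 1.98 and that of Clec5a 2.12. Other lectin and inhibitory receptors moved the other way: Clec2d fell from 9.43, 9.69 and 9.99 to 8.96, 8.25 and 8.44 (-1.16 ± 0.21), Cd300a by 0.91, and Clec7a, which encodes the fungal glucan receptor dectin-1, by 0.64. The count of 8 falls was 5 without 6-week replicate 3, and 4 after median centring.

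Single pattern recognition receptors changed in both directions. Tlr4, the lipopolysaccharide receptor gene on chromosome 4, rose from 6.78, 7.0 and 7.45 to 8.0, 8.35 and 8.37, a 2.24-fold increase (1.16 ± 0.21, adjusted p = 0.000657). Ly96, which encodes its partner MD-2, was at 7.13, 6.82 and 7.62 against 7.94, 7.86 and 7.74 (0.66 ± 0.24, adjusted p = 0.0337), but the call was lost without any single one of 5 arrays (adjusted p between 0.0621 and 0.152) and with low values raised to 100 (0.0988). Cd14 did not pass (0.42 ± 0.17, adjusted p = 0.0574). Tlr9, the receptor for unmethylated DNA in endosomes, fell from 9.11, 9.08 and 9.05 to 8.10, 8.06 and 8.01, with the arrays of each group within 0.10 of each other (-1.02 ± 0.13, adjusted p = 2.85e-05). Of the other receptors for nucleic acids, added after the values were seen, Tlr7 fell by 0.65 ± 0.17 (adjusted p = 0.0084, 0.059 without 6-week replicate 3 and 0.0649 after median centring), while Tlr8 (-0.04 ± 0.13), Tlr3 (-0.25 ± 0.11) and Tlr13 (0.18 ± 0.14) did not pass. Cd180, a relative of TLR4 that restrains it, fell from 9.96, 10.05 and 10.35 to 9.51, 9.18 and 9.07 (-0.86 ± 0.16, adjusted p = 0.000663), and Nod2, a sensor of bacterial wall fragments, fell by 0.70. Over the whole list of Fc and pattern recognition receptors 5 of 28 were higher and 7 lower, near the 21.8% and 24.4% of all genes. At a level of 8 or more, 15.8% of 19 members were higher and 26.3% lower. Those shares were not near the 50.6% and 8.27% of all genes at that level. The 5 rises were 3 without naive replicate 2 or 6-week replicate 3 and 2 without 6-week replicate 2, and the 7 falls were 11 without 6-week replicate 1 and 4 without 6-week replicate 3.

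**Figure D3:**
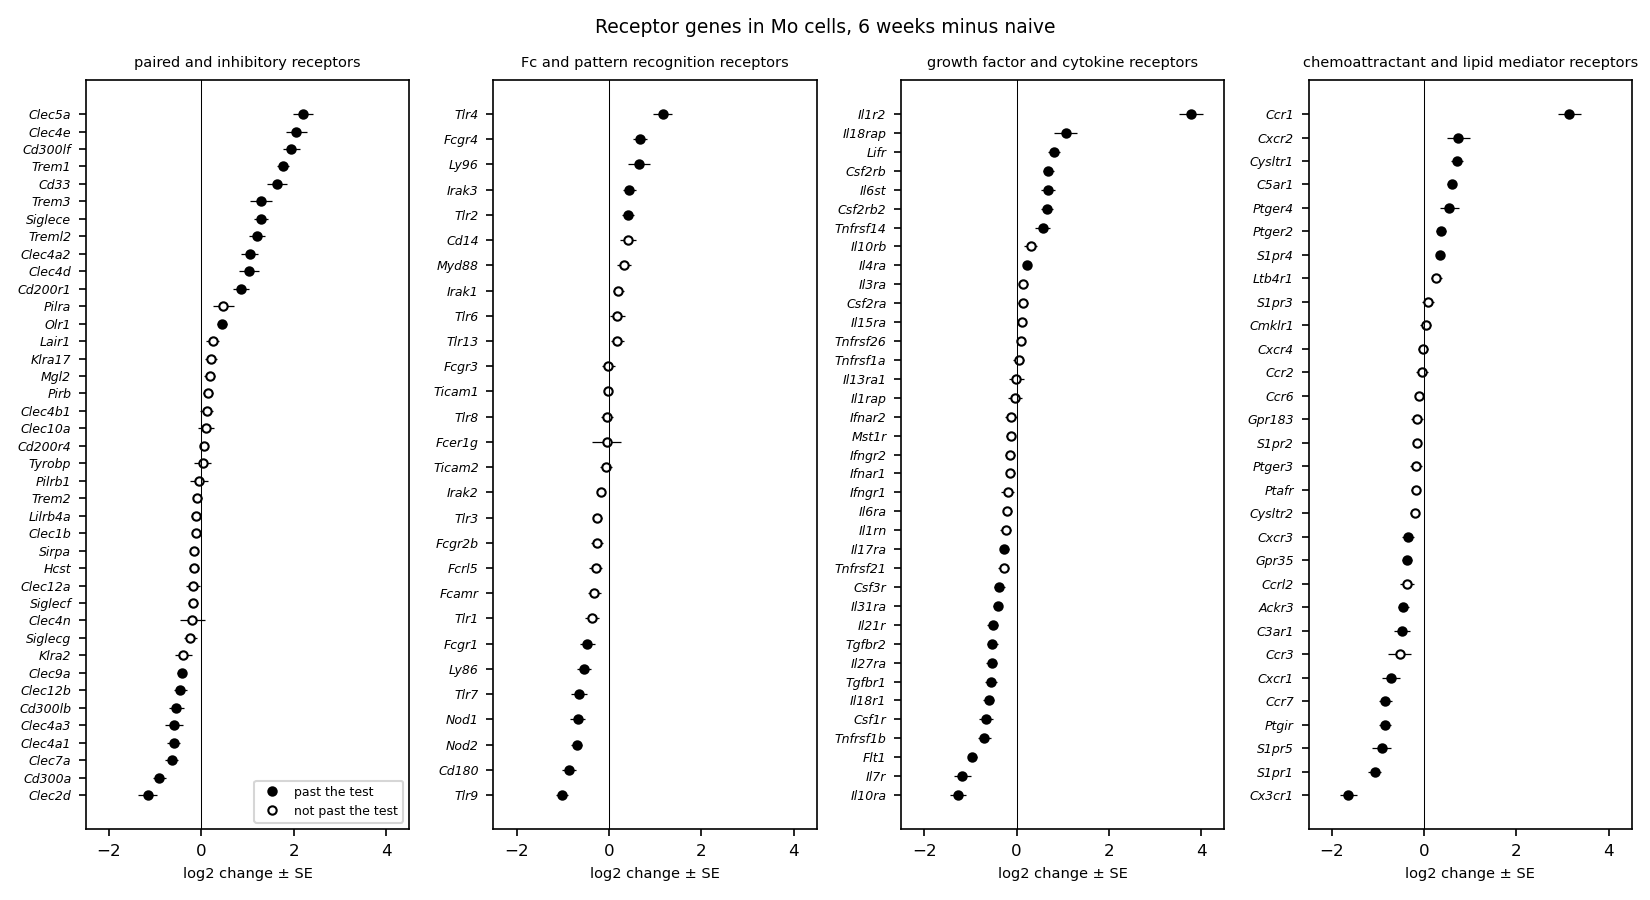
Log2 change at 6 weeks against naive (horizontal axis, with the SE of the fit) of every measured member of 4 receptor lists in Mo cells. Filled points passed the test and open points did not; Il1r2, Ccr1, Clec5a and Clec4e lie farthest to the right and Cx3cr1, Il10ra, Il7r and Clec2d farthest to the left.

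Cytokine receptors had 8 of 37 members higher (21.6%, against 21.8% of all genes) and 13 lower (35.1%, against 24.4%). At a level of 8 or more, 25% of 24 members were higher and 29.2% lower, against 50.6% and 8.27%. The rises were led by Il1r2, the decoy receptor for interleukin-1 (chromosome 1, 40084692 to 40125230), from 5.84, 5.79 and 6.04 to 8.79, 10.39 and 9.83, a 13.7-fold increase in a gene that is also in the neutrophil list (3.78 ± 0.26, adjusted p = 6.79e-08). The change was 3.42 without 6-week replicate 2, and 3.02 with low values raised to 100. The 3-week arrays lay at 6.16, 6.44 and 6.33. Il18rap, the accessory chain of the interleukin-18 receptor, rose by 1.06 ± 0.25, and Csf2rb, the chain shared by the receptors for GM-CSF, interleukin-3 and interleukin-5, rose from 9.99, 10.14 and 10.33 to 10.71, 10.84 and 10.98 (0.69 ± 0.12, adjusted p = 0.000616). Il10ra, the receptor chain for the dampening cytokine interleukin-10, fell from 10.32, 10.46 and 10.49 to 9.51, 8.97 and 8.98 (-1.27 ± 0.16, adjusted p = 3.52e-05). Csf1r, the receptor that sustains monocytes and macrophages, fell from 11.98, 12.06 and 12.11 to 11.57, 11.30 and 11.28 (-0.67 ± 0.15, adjusted p = 0.00343). Tnfrsf1b, which encodes TNF receptor 2, fell by 0.69 and Il7r by 1.17, although Il7r was dim (5.20 to 7.02) and did not pass with low values raised to 100 (adjusted p = 0.359).

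Receptors for chemoattractants and lipid mediators had 7 of 30 higher and 10 lower (23.3% and 33.3%, against 21.8% and 24.4% of all genes). These counts were 4 higher without 6-week replicate 2 and 6 lower without naive replicate 1. At a level of 8 or more, 30.8% of 13 members were higher and 23.1% lower, against 50.6% and 8.27%. Beside Ccr1, C5ar1, the receptor for complement fragment C5a, rose from between 8.26 and 8.31 to between 8.78 and 9.05 (0.60 ± 0.10). Cx3cr1, the fractalkine receptor of patrolling monocytes, fell from 10.97, 11.10 and 11.07 to a mean of 9.41 ± 0.52 (SD, n = 3), with replicate 1 the highest and replicates 2 and 3 at 9.24 or less (3.11-fold lower, -1.64 ± 0.18, adjusted p = 6.57e-06). The sphingosine phosphate receptors that guide exit from tissues fell too, S1pr1 from 8.05, 7.97 and 7.76 to 7.14, 6.79 and 6.64 (-1.07 ± 0.14) and S1pr5 by 0.92 ± 0.20. Ccr2, given above, did not pass (-0.04 ± 0.12, adjusted p = 0.778).

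Genes of Ly-6C low monocytes were, in the reported fit, the list with the largest share of falls among the 46 lists of pathways and programmes, 13 of 24 lower and 1 higher, against 24.4% lower over all genes. Among the 13 members at a level of 8 or more, 7 were lower (53.8%), against 8.27% of all genes at that level. Ace, which encodes the angiotensin converting enzyme (chromosome 11, 105967948 to 105989964), lay at 10.64, 11.01 and 11.14 in naive arrays and at 10.55, 8.05 and 8.59 at 6 weeks (-1.87 ± 0.40, adjusted p = 0.00216). Adgre4, an adhesion receptor gene, lay at 11.24, 11.51 and 11.73 and then at 10.78, 9.22 and 9.75 (-1.58 ± 0.31, adjusted p = 0.00124). Cd36, a scavenger receptor for lipids, fell by 1.28 ± 0.30 (adjusted p = 0.00383). Nr4a1, whose product is needed to make these cells, fell from 11.27, 11.37 and 11.34 to 11.07, 10.44 and 10.19 (-0.76 ± 0.22, adjusted p = 0.0134), a call lost without 6-week replicate 2 (0.0533) or 3 (0.0808) and after median centring (0.061). Fcgr4, an Fc receptor of the same cells, rose instead (0.66 ± 0.15), and Spn, Cebpb and Lair1 were among 10 members that did not pass.

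The falls came mainly from 6-week replicates 2 and 3. Replicate 1 lay just below the naive range in Ace and within it in Cd36, whereas both other arrays were below it, and 8 of the 24 genes had groups that did not overlap, against 55.1% of all genes. The count of 13 was 8 without 6-week replicate 2, 8 without replicate 3 and 17 without replicate 1, and the change in Ace was -2.61 without replicate 1. The 3-week arrays lay at the naive level for Ace (11.07, 11.03 and 10.91) and Adgre4 (11.33, 11.35 and 11.38). The sort was for cells with much Ly-6C, and how well it left out Ly-6C low cells was not tested. In a bulk sample, fewer cells of a type and less RNA per cell cannot be told apart.

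**Figure D4:**
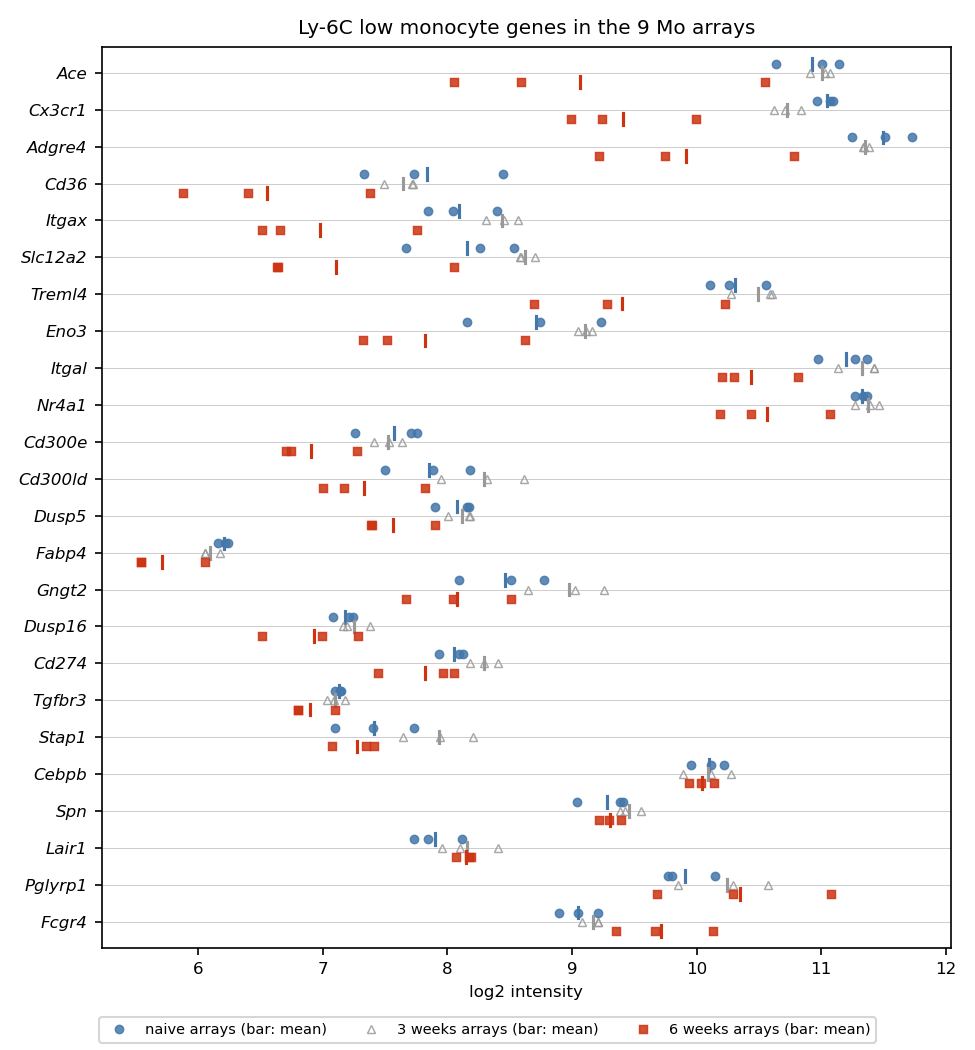
Log2 intensity (horizontal axis) of the 24 measured Ly-6C low monocyte genes in the 9 Mo arrays, with circles for naive, open triangles for 3-week and squares for 6-week arrays, and bars for group means. In Ace, Adgre4 and Itgax the 3-week arrays lie with the naive ones, and 2 of the 3 squares lie far below.

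Genes of macrophage maturation and uptake of dead cells had 3 of 29 higher (1 without naive replicate 2 or 6-week replicate 2) and 13 lower (10.3% and 44.8%, against 21.8% and 24.4% of all genes). Siglec1, a sialic acid receptor of tissue macrophages, fell from 8.55, 8.52 and 8.74 to 7.33, 6.91 and 6.91 (-1.55 ± 0.11, adjusted p = 6.79e-08). Axl, a receptor for dying cells, fell from 8.12, 7.68 and 8.12 to 6.91, 6.86 and 6.69 (-1.15 ± 0.30, adjusted p = 0.00727). Mertk, a close relative of Axl, lay at 6.54, 6.33 and 6.36 against 6.84, 8.45 and 7.64, a rise of 1.23 ± 0.34 (adjusted p = 0.0103) that was lost without 6-week replicate 2 (0.0651) and with low values raised to 100 (0.082). Msr1, the class A scavenger receptor, rose by 0.59 ± 0.17, lost without naive replicate 2 (0.0534) and in the fit to the 9 Mo arrays (0.0525). At a level of 8 or more, 2 of 6 members were higher and 0 lower, against 50.6% and 8.27% of all genes at that level. The count of 13 falls was 4 after median centring, 6 after quantile normalization and 3 with low values raised to 100. With single arrays left out it was 4 without 6-week replicate 3, and 5, 7 and 8 without naive replicate 1, naive replicate 2 and 6-week replicate 2.

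Among transcription factors of monocytes and dendritic cells 5 of 27 were higher and 11 lower (18.5% and 40.7%, against 21.8% and 24.4% of all genes). At a level of 8 or more, 31.2% of 16 members were higher and 25% lower, against 50.6% and 8.27%. Id2 rose from 9.38, 9.10 and 9.81 to 10.26, 10.75 and 10.08 (0.94 ± 0.21, adjusted p = 0.00334). Klf4, needed for Ly-6C high monocytes, rose by 0.64 ± 0.18 (not past the test after quantile normalization, adjusted p = 0.0837), and Irf8, which directs progenitors to the monocyte and dendritic lineage, by 0.62 ± 0.17 (adjusted p = 0.0091, lost without 6-week replicate 3 at 0.0596, without naive replicate 1 at 0.0529 and after quantile normalization at 0.0561). Irf4, a factor of monocyte-derived dendritic cells and lymphocytes, fell from 7.83, 8.20 and 7.81 to 7.04, 6.88 and 6.63 (-1.10 ± 0.14, adjusted p = 4.05e-05). The falls of this list numbered 2 after median centring and 6 without 6-week replicate 3, and its rises 2 after quantile normalization and 3 without naive replicate 1 or 6-week replicate 3.

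Progenitor genes had 7 of 24 higher (29.2%, against 21.8% of all genes) and 2 lower (1 if naive replicate 2 is left out, and 0 if naive replicate 1 or either of 6-week replicates 2 and 3 is), with 6 of the rises at least 2-fold. At a level of 8 or more, 3 of 6 members were higher (50%, against 50.6% of all genes at that level) and 0 lower. Ms4a3, a gene of granulocyte and monocyte progenitors, rose from 6.14, 6.04 and 5.97 to 8.11, 9.65 and 10.11 (9.44-fold, 3.24 ± 0.31). Its naive values lie below log2 of 100, and the change was 2.65 with such values raised to 100 and 3.83 without 6-week replicate 1. Myb, a factor of immature cells, rose from 6.75, 6.72 and 6.65 to 7.45, 8.55 and 8.94 (1.61 ± 0.24, adjusted p = 0.000148), Flt3, a cytokine receptor of lymphoid and dendritic progenitors, from 7.59, 7.85 and 7.65 to 8.71, 9.60 and 8.74 (1.32 ± 0.18), and Cd33 from 8.81, 8.72 and 9.05 to 10.05, 11.16 and 10.28 (1.64 ± 0.21). In all 4 genes the groups were apart. The stem cell markers Cd34 (0.00 ± 0.10, adjusted p = 0.977) and Kit (-0.01 ± 0.12, adjusted p = 0.924) did not pass and stayed between 6.23 and 6.63 in all 6 arrays. Ms4a3 is also in the azurophil granule list, of which 9 of 13 rose, with Mpo at 4.53, Ctsg at 4.24 and Elane at 4.18. The mitosis and DNA replication lists rose in 29 of 29 and 31 of 31 members.

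Respiratory chain genes were all higher. The chain passes electrons from nutrients through 4 complexes and cytochrome c to oxygen, and ATP synthase uses the resulting gradient. Many nuclear genes for it are bound by nuclear respiratory factor 1. Of 37 measured members 37 were higher, with changes from 0.37 to 1.31 and a median of 0.81, and 33 of 33 members at a level of 8 or more, against 50.6% of all genes at that level. Between 33 and 37 passed under every alternative. Ndufb6, of complex I, rose from 7.61, 7.78 and 8.05 to 8.92, 9.10 and 9.36 (1.31 ± 0.22, adjusted p = 0.000372). Sdhb, the iron-sulphur subunit of complex II, rose from 7.56, 7.78 and 8.14 to 8.75, 9.06 and 9.21 (1.18 ± 0.22), and Cycs, cytochrome c, from 9.33, 9.24 and 9.39 to 10.05, 9.99 and 10.42 (0.83 ± 0.13). In these 3 genes each 6-week array was above each naive array. The 3-week arrays of Sdhb lay at 8.11, 8.94 and 9.03, of which 2 were within the 6-week range.

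The letters GCATGCGC, a core of the nuclear respiratory factor 1 motif, were searched on both strands in the 250 bases before the start of each gene. They were in 3 of the 29 respiratory chain promoters found (10.3%) and in 3.22% of 15614 promoters of all genes tested. In the other lists searched the share ran from 0% (ribosome biogenesis) to 8.82% (mitochondrial ribosome and import). Other motifs, the E-box below among them, were counted in the same lists, and ETS family letters were in 0 of the 29. The match is a description of the letters and shows no binding. These are the 3 promoters, from RefSeq on GRCm38.p6, with the motif in capitals. That of Sdhb is chr4:140961021-140961270 on the plus strand, that of Cycs chr6:50566570-50566819 on the minus strand, and that of Ndufa8 (complex I, 0.71 ± 0.13) chr2:36049339-36049588 on the minus strand. The motif starts 54, 60 and 8 bases before the gene.
Sdhb: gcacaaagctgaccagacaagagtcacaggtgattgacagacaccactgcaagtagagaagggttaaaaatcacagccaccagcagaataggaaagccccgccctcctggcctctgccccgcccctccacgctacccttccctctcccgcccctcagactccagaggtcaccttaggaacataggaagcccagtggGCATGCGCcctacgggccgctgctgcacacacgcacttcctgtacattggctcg
Cycs: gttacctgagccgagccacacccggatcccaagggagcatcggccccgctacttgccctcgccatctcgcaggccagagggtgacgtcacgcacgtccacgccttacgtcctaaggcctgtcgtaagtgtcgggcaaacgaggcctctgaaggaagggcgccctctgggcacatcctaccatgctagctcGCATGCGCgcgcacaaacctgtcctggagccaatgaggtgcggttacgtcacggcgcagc
Ndufa8: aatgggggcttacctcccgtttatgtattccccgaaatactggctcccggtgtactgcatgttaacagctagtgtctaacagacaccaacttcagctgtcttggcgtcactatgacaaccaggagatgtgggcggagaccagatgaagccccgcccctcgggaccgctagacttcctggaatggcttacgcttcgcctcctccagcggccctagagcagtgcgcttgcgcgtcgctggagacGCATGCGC

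Other bright housekeeping lists rose with it. Of the citric acid cycle 21 of 27 were higher and 0 lower (median 0.68), led by Idh3a from 8.13, 8.29 and 8.40 to 9.26, 9.60 and 10.22 (1.42 ± 0.18) and Got2, of the malate-aspartate shuttle, by 1.28 ± 0.12. Mitochondrial ribosome and import genes had 31 of 38 higher and 1 lower (median 0.65). The proteasome had 30 of 31 higher and 0 lower (median 0.89), with Psmd14, which strips ubiquitin from substrates, rising from 8.51, 8.29 and 8.85 to 9.76, 9.91 and 10.32 (1.45 ± 0.17, adjusted p = 1.51e-05) and Psmc6, an ATPase of the cap, by 1.22. The 3 catalytic subunits and the 3 that replace them in the immunoproteasome were compared after the values were seen. The standard subunits rose, Psmb5 by 0.43 (lost without 6-week replicate 3, adjusted p = 0.0712, and after quantile normalization, 0.232), Psmb6 by 0.89 and Psmb7 by 0.99, and the interferon-inducible subunits did not pass, with Psmb8 at 0.42 ± 0.19, Psmb9 at 0.08 ± 0.09 and Psmb10 at 0.30 ± 0.14. The difference between them was not tested.

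Biosynthesis lists rose as well. Of one-carbon, purine and pyrimidine synthesis genes 20 of 27 were higher and 1 lower (median 0.89), 10 of them at least 2-fold. Shmt2, the mitochondrial serine enzyme that feeds one-carbon units, rose from 7.48, 7.11 and 7.13 to 8.38, 8.98 and 9.58 (3.33-fold, 1.74 ± 0.23, adjusted p = 4.92e-05), Tyms by 1.49, Mthfd1 by 1.48 and the serine synthesis gene Psat1 by 1.44. Glycolysis and pentose phosphate genes had 21 of 29 higher and 3 lower (1 if naive replicate 3 or either of 6-week replicates 2 and 3 is left out), with the lactate transporter gene Slc16a1 at 1.44 (0.78 with low values raised to 100) and Tpi1 at 1.37, while Pfkfb3, which makes the activator of phosphofructokinase, fell from 8.28, 8.32 and 8.35 to 7.55, 7.64 and 7.71 (-0.69 ± 0.09, adjusted p = 6.16e-05). Genes of translation and tRNA charging had 25 of 28 higher, and ribosome biogenesis 30 of 35, led by Nop58 (1.63 ± 0.22), but the latter count was 19 without naive replicate 1, 15 without 6-week replicate 3 and 17 after quantile normalization. Protein folding and export in the endoplasmic reticulum had 26 of 35 higher and 0 lower. All these lists lay above 50.6% higher, the share among all bright genes. Chromatin genes had 24 of 36 higher and 5 lower. Hells and Uhrf1, partners of maintenance DNA methylation in dividing cells, rose by 2.51 and 2.15, while Dnmt3a, the de novo methyltransferase gene, fell from 7.88, 7.79 and 7.97 to 7.34, 7.09 and 7.24 (-0.66 ± 0.09, adjusted p = 8.49e-05). The 5 falls numbered 2 without naive replicate 2 and 3 without naive replicate 1 or 6-week replicates 2 or 3.

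**Figure D5:**
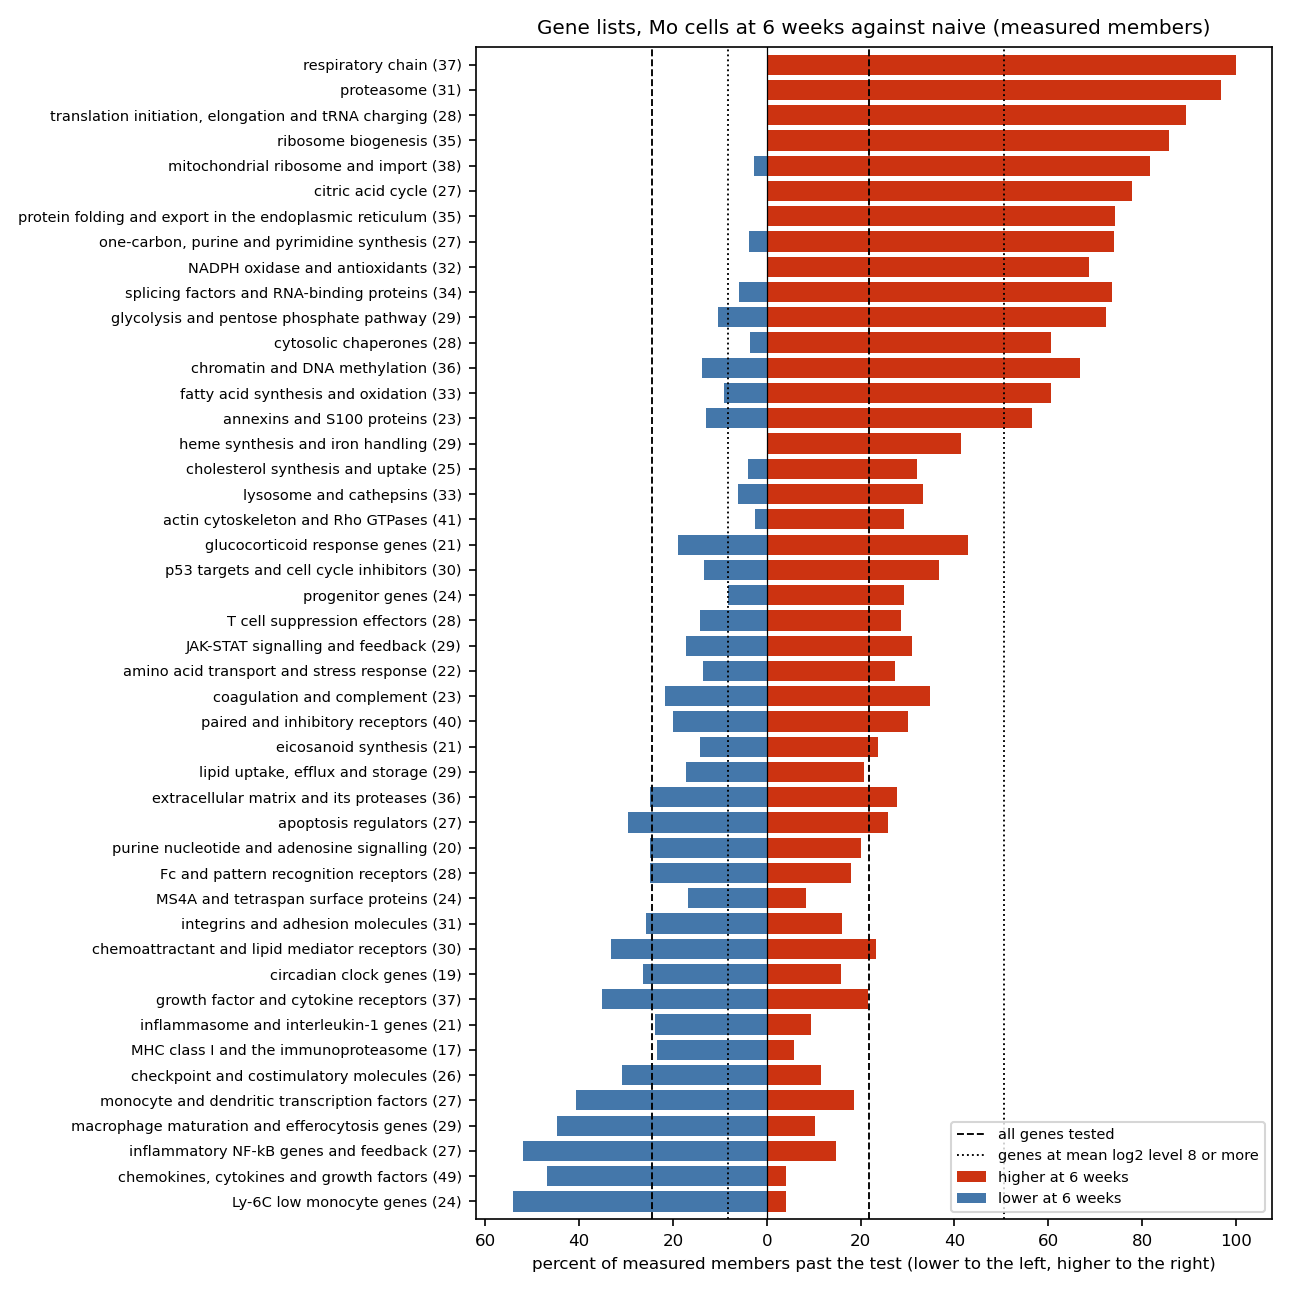
Percent of measured members of each of the 46 programme lists that passed the test, higher to the right and lower to the left, in Mo cells at 6 weeks against naive, with the number of members measured in brackets. Dashed lines mark 21.8% and 24.4% of all genes, and dotted lines 50.6% and 8.27% of genes at a level of 8 or more; the respiratory chain and the proteasome are at the top and Ly-6C low monocyte genes at the bottom.

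Genes that handle oxidants had 22 of 32 higher and 0 lower (14 of 32 after quantile normalization). Gclm, the regulatory subunit of the enzyme that limits glutathione synthesis, rose from 7.18, 7.33 and 7.36 to 8.81, 9.73 and 9.54 (4.2-fold, 2.07 ± 0.19, adjusted p = 1.29e-06), and the secreted peroxidase gene Gpx3 from 7.02, 7.10 and 7.13 to 8.61, 8.94 and 8.75 (1.68 ± 0.14). The subunits of the phagocyte oxidase, which makes superoxide, were set side by side after the values were seen. Ncf4 rose by 1.10 ± 0.16, Ncf1 by 0.54 ± 0.14, Cyba by 0.60 ± 0.18 and the GTPase gene Rac2 by 0.52 ± 0.14. Cybb, the catalytic subunit, lay at 13.27, 13.32 and 13.35 against a 6-week mean of 13.05 and did not pass (-0.26 ± 0.14, adjusted p = 0.131). The calls for Cyba and Rac2 were lost without single arrays, Cyba at 0.0606 without 6-week replicate 2 and 0.058 without naive replicate 2, and Rac2 at 0.0605 without naive replicate 1. After quantile normalization Ncf1 (0.0586), Cyba (0.0747) and Rac2 (0.0657) did not pass.

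Heme and iron genes had 12 of 29 higher and 0 lower (10 of 17 higher at a level of 8 or more, 58.8% against 50.6%). Tfrc, the transferrin receptor, rose from 7.17, 7.63 and 7.11 to 9.83, 10.39 and 8.48 (4.8-fold, 2.26 ± 0.37, adjusted p = 0.000264), Hp, which encodes the hemoglobin-binding protein haptoglobin, from 10.70, 10.70 and 10.87 to 11.98, 12.23 and 12.26 (1.40 ± 0.14), and Alas1, the first enzyme of heme synthesis outside red cells, by 1.12. Erythroid markers moved with Tfrc over the arrays: the mean level of the 13 measured was between 6.80 and 7.30 in naive arrays and 8.11, 8.63 and 6.75 at 6 weeks, and Slc4a1, a red cell membrane gene, lay at 9.91 and 10.59 in 6-week replicates 1 and 2 but at 7.69 in replicate 3. Of this list 3 rose (10 without 6-week replicate 3, and 1 when either of naive replicates 1 and 3 or 6-week replicates 1 and 2 was left out), namely Tfrc, Rhag and Car2. Without 6-week replicate 2 the adjusted p was 0.137 for Rhag and 0.189 for Car2. The part of red cell precursors in the rise of Tfrc was not tested.

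Lipid and lysosome genes were mixed. Scd2, a fatty acid desaturase gene, rose by 1.75 ± 0.22, Acadl, of fatty acid oxidation, by 1.48 ± 0.18, and Dgat2, which makes triglyceride, from 7.74, 7.67 and 7.52 to 8.90, 9.63 and 9.47 (1.69 ± 0.16, adjusted p = 1.29e-06). Fatty acid synthesis and oxidation had 20 of 33 higher and 3 lower, and 14 of the 20 members at a level of 8 or more were higher (70%, against 50.6%). Lysosome genes had 11 of 33 higher (11 of 29 bright members, 37.9% against 50.6%) and 2 lower (6 without 6-week replicate 1, 4 without naive replicate 3, and 1 if naive replicate 1 or 6-week replicate 3 is left out), with the protease genes Ctsl at 1.40 and Ctsd at 1.35. Lta4h, which makes leukotriene B4, rose from 7.07, 6.99 and 7.43 to 8.53, 9.24 and 9.18 (1.82 ± 0.22, adjusted p = 1.65e-05).

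Matrix and clotting genes gave single large changes. At a level of 8 or more, 60% of 15 extracellular matrix genes were higher and 20% lower, against 50.6% and 8.27%. Of all extracellular matrix genes 10 of 36 were higher and 9 lower (27.8% and 25%, near the 21.8% and 24.4% of all genes). Among them was Thbs1, an anti-angiogenic matrix protein that activates TGF-beta, which rose from 9.78, 9.50 and 9.41 to 11.35, 11.49 and 10.79 (1.64 ± 0.16, adjusted p = 1.58e-06), while Mmp19, a metalloprotease gene, rose by 1.34 ± 0.18 and the metalloprotease inhibitor gene Timp2 fell by 1.04 ± 0.19. The 9 falls numbered 4 when either of naive replicates 1 and 2 or 6-week replicate 2 was left out. They numbered 3 without 6-week replicate 3 or after median centring, and 13 without 6-week replicate 1. F10, the clotting factor X gene, rose from 9.25, 9.36 and 9.62 to 11.10, 11.33 and 11.29, a 3.56-fold increase (1.83 ± 0.12, adjusted p = 5.07e-08), and F13a1, clotting factor XIII and a monocyte marker, by 0.66 ± 0.10. Coagulation and complement genes had 8 of 23 higher and 5 lower (34.8% and 21.7%, against 21.8% and 24.4%), the latter 2 without naive replicate 1 or 6-week replicate 3. Among integrins, Itga1, a collagen receptor chain, rose by 0.84 ± 0.18, and the leukocyte chains Itgal (-0.76 ± 0.16), Itga4 (-0.72 ± 0.11) and Itgax (-1.12 ± 0.24) fell.

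Of chemokines, cytokines and growth factors 2 of 49 were higher and 23 lower (4.08% and 46.9%, against 21.8% and 24.4% of all genes), and 24 did not pass. Cxcl10, an interferon-induced chemokine for T cells, fell from 8.56, 8.54 and 8.54 to 6.93, 7.16 and 7.0 (-1.52 ± 0.14, adjusted p = 1.29e-06), and Cxcl9 by 1.02. Ccl5 fell by 2.04 but is also a T and NK cell marker. Mif rose by 0.61, and the rise of Tnf (0.54 ± 0.19) was lost when any 1 of 4 arrays was left out, naive 1 and 2 and 6-week 2 and 3 (adjusted p between 0.053 and 0.137). Many members were dim, and the 23 falls numbered 8 after median centring, 10 after quantile normalization, 9 with low values raised to 100, 11 when either of naive replicates 1 and 2 or 6-week replicate 2 was left out, and 12 without 6-week replicate 3. Of NF-kB genes 4 of 27 were higher (2 without 6-week replicate 3) and 14 lower (51.9%, against 24.4%), with 7 lower after median centring. Tnfaip3, which encodes the inhibitor A20, fell from 9.29, 9.47 and 9.25 to 8.50, 8.31 and 8.48 (-0.90 ± 0.11, adjusted p = 1.91e-05), Nfkbiz fell by 0.70, and the kinase gene Ikbke rose by 1.07 ± 0.16. Genes that cell handling can induce moved beside them, with 3 of 21 immediate early genes higher (1 without naive replicate 1 or 6-week replicate 3) and 11 lower (6 lower without 6-week replicate 3 or after median centring). These were 14.3% and 52.4%, against 21.8% and 24.4% of all genes. At a level of 8 or more, 12.5% of 16 members were higher and 68.8% lower, against 50.6% and 8.27%. Atf3 (-1.38), Fosb (-1.38) and Dusp1 (-1.18) led those falls, and their part in the NF-kB result was not tested.

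Clock genes and glucocorticoid targets are linked, since the hormone follows a daily rhythm. The clock works by a loop in which CLOCK and ARNTL bind E-box letters and their products PER and CRY shut them off. The labels do not give the time of day at which spleens were taken. Of 19 clock genes 3 were higher and 5 lower, below the background of 46.2% of genes that passed. Cry1 rose from 7.80, 7.78 and 7.83 to 8.64, 9.11 and 9.15 (2.24-fold, 1.16 ± 0.12, adjusted p = 2.92e-06), and Nfil3, a repressor of the clock output, from 8.65, 8.59 and 8.73 to 9.37, 9.36 and 9.22 (0.66 ± 0.12). The repressor genes Nr1d1 and Nr1d2 fell, from 7.13, 7.11 and 6.90 to 6.56, 6.39 and 6.19 (-0.67 ± 0.14) and from 7.78, 7.88 and 7.85 to 7.03, 7.31 and 7.04 (-0.71 ± 0.11, adjusted p = 0.000235), and Tef, an output factor, fell by 0.52 ± 0.10. In Cry1, Nfil3, Nr1d1 and Nr1d2 the groups did not overlap. Arntl (0.00 ± 0.08), Per1 (-0.40 ± 0.20) and Per2 (-0.13 ± 0.11) did not pass. Ciart fell by 0.43, a call lost without any 1 of the same 4 arrays as for Tnf (adjusted p up to 0.173). The 5 falls numbered 3 when either of naive replicates 1 and 2 or 6-week replicate 3 was left out.

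The E-box letters CACGTG, which read the same on both strands, were in the 250 bases before 5 of 16 clock genes found (31.2%) and before 7.03% of 15614 genes. In the other lists searched the share ran from 3.33% (ribosome biogenesis) to 17.6% (mitochondrial ribosome and import). The letters CCAAT were in 68.8% of the same 16 promoters, against 35.5% of all. The promoters of Cry1, which rose, and of Tef, which fell, both hold the E-box letters 1 time. That of Cry1 is chr10:85185055-85185304 on the minus strand, with the letters starting 60 bases before the gene, and that of Tef chr15:81802423-81802672 on the plus strand, 127 bases before it. Of the 5 genes, Cry1 rose, Tef and Ciart (3 copies of the letters) fell, and Per1 and Bhlhe41 (-0.16) did not pass. The promoters of Cry1 and Tef are shown from RefSeq on GRCm38.p6 with the E-box in capitals, as the 2 whose change held when single arrays were left out.
Cry1: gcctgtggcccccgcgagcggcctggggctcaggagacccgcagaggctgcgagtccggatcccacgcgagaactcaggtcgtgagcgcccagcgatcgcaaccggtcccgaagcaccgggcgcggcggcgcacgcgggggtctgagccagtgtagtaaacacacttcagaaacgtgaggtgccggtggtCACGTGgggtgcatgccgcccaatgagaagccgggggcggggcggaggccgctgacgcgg
Tef: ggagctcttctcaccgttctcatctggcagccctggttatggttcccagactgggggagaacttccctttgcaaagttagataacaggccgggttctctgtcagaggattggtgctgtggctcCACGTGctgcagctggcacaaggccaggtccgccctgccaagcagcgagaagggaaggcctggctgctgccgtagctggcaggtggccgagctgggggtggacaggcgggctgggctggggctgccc

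Of glucocorticoid response genes 9 of 21 were higher and 4 lower (42.9% and 19%, against 21.8% and 24.4% of all genes). At a level of 8 or more, 50% of 14 members were higher, near the 50.6% of all genes at that level. The share lower was 14.3%, against 8.27%. Beside Fkbp5 and Il1r2, the metallothionein gene Mt1 rose from 7.37, 7.13 and 6.94 to 8.49, 9.49 and 9.38 (1.97 ± 0.20, adjusted p = 2.34e-06). Lcn2 (4.43) and Thbs1 are also in the specific granule or matrix lists. Dusp1, another target, fell from 12.63, 12.61 and 12.08 to 11.48, 11.69 and 10.61 (-1.18 ± 0.28, adjusted p = 0.00474), and Per1 is in this list too. At least 2-fold changes in this list were 5 higher and 1 lower.

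Genes tied to T cell suppression had 8 of 28 higher and 4 lower (28.6% and 14.3%, against 21.8% and 24.4% of all genes), and the falls numbered 2 when either of replicates 1 and 2 of the naive group or 2 and 3 of the 6-week group was left out. At a level of 8 or more, 50% of 14 members were higher and 14.3% lower, against 50.6% and 8.27% of all genes there. Lgals1, which encodes galectin-1, a lectin that can kill activated T cells, rose from 10.24, 10.36 and 10.70 to 11.86, 11.72 and 12.29 (1.52 ± 0.17, adjusted p = 8.09e-06), and Lgals3 from between 10.94 and 11.17 to between 11.81 and 11.95 (0.84 ± 0.17). Entpd1, which encodes the ATP-degrading enzyme CD39, fell from 9.36, 9.33 and 9.49 to 8.88, 8.56 and 8.29 (-0.82 ± 0.13, adjusted p = 0.000281), and Tgfb1 from between 11.73 and 11.88 to between 11.33 and 11.41 (-0.44 ± 0.11), a call lost after median centring (adjusted p = 0.149). Arg1 lay at 6.22, 6.25 and 6.06 against 5.98, 6.10 and 5.95 and Cd274 between 7.44 and 8.13 in all 6 arrays, and neither passed. Nos2 was called lower, but the call was lost in 9 alternatives (adjusted p between 0.0505 and 0.285). Il4ra was called higher, but the call was lost in 11 alternatives (adjusted p between 0.0547 and 0.918). S100a8 and S100a9 were at 6.61 to 7.93 in naive and 10.23 to 12.20 in 6-week arrays.

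Markers of other cells moved beside these results. Over all genes 24.4% were lower, and 38.7% of genes at a level between 6 and 7. T and NK cell markers were lower in 20 of 23 (87%) and higher in 0 (10 lower with low values raised to 100), with a mean level between 6.95 and 7.28 in naive and between 6.18 and 6.44 in 6-week arrays. Cd3g was at 7.14, 7.87 and 7.91 and then at 5.92, 5.72 and 5.57, and Gzma at 7.39, 8.10 and 8.22 and then at 6.11, 5.54 and 5.52. B cell markers were lower in 11 of 16 (68.8%, mean 6.88 to 7.64 and 6.38 to 6.89), but in 1 without naive replicate 1, in which Ms4a1 was at 8.05 (6.28 and 6.29 in naive replicates 2 and 3), and in 3 without 6-week replicate 2 or 3, after median centring or after quantile normalization. Dendritic cell markers had 11 of 17 lower (64.7%) and 2 higher, the latter Flt3 and Cd24a, with a mean of 7.18 to 7.28 and 6.77 to 7.06. The falls were 7 without 6-week replicate 3, after quantile normalization or with low values raised to 100, and 6 after median centring. The part of T, NK, B and dendritic cells in the falls of Il7r, S1pr1, S1pr5, Itgal, Ccl5, Irf4, Gimap4 and Cd209a was not tested. Red pulp macrophage markers, of which Siglec1, Axl and Mertk are members, had 6 of 15 (40%) lower (4 without naive replicate 1 or 2, 3 without 6-week replicate 2 or 3) and 1 higher (mean 7.41 to 7.60 and 6.94 to 7.24).

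Neutrophil markers had 10 of 18 higher and 2 lower (55.6% and 11.1%, against 21.8% and 24.4% of all genes), with a mean level of 6.89 to 7.21 in naive arrays and 8.26, 9.61 and 8.32 at 6 weeks. Leaving out 6-week replicate 2 lowered the change in Ly6g from 1.24 ± 0.45 to 0.42 (adjusted p = 0.161), while S100a8 was at 3.86 and Il1r2, given above, kept its call. The receptor gene Cxcr2 lay at 5.66, 7.25 and 6.09 at 6 weeks and lost its rise of 0.74 ± 0.25 without that array (adjusted p = 0.0981) and without naive replicate 2 or 3 (0.0693 and 0.0594). Interferon-stimulated genes, set aside here, were lower in 28 of 30, and MHC class II genes in 9 of 15, with H2-Aa at 10.47, 10.42 and 10.39 against 7.93, 6.30 and 5.85.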

How the data were processed

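Monocytic cells were profiled on 1-colour Affymetrix arrays. Per the submitters' processing notes the authors used RMA (background correction, normalization and summary by feature); version, settings and which arrays were normalized together are not given in the sources used here. The deposited intensity values are on a linear scale and were converted to log2. Raw scans were not used here. Of 35557 features, 21789 had 1 gene symbol, 1621 several and 12147 none; 21698 features matched RefSeq by Entrez identifier. The feature with the highest mean was kept for each of 999 genes with several, which left 19938 genes. The monocytic and neutrophilic subsets differed in their quartiles and were not compared.

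limma 3.58.1 in R 4.3.3 was fitted on all 17 arrays with 6 group means, so that the groups shared 1 estimate of spread, and 6-week minus naive was tested two-sided with Benjamini-Hochberg adjustment over all genes. The threshold was an adjusted p of 0.05. Errors are standard errors of the fit. The number of arrays limits the precision. The scripts were tested on simulated data.

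The members and gene lists were chosen with earlier results of these data known. Named genes were the 15 largest rises and falls of at least 2-fold whose groups did not overlap, outside granule, neutrophil, mitosis, replication, interferon and MHC class II lists; up to 4 rises and 4 falls of each programme list; up to 3 of each other list; and the genes that define the cells or their suppressive function. Members that did not pass were added where their role was needed. Alternatives were other sets of arrays, scalings, filters, array weights, trend and robust settings, a replicate block and each array left out.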

Additional observations from a re-analysis of the deposited data

How the results depend on the processing

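Counts of genes that passed depended on the processing. Named genes were mostly picked for large changes that passed in the reported fit, so their stability cannot be set against these counts. Of 172 named genes 152 passed, 126 of them under every alternative that tested them, and 26 lost the call in at least 1. Of these 152 genes 0 changed direction, while 10 of the 20 that did not pass did. Median centring turned Ccr2 to 0.14, Kit to 0.17, Per2 to 0.053, Arg1 to 0.017 and Tlr8 to 0.15, quantile normalization Kit to 0.18, Per2 to 0.058, Arg1 to 0.054, Itgam to -0.0043 and Psmb9 to -0.10, and array weights Cd34 to -0.030 and Kit to 0.12. With single arrays left out Ccr2 ranged from -0.12 to 0.013, Cd34 from -0.065 to 0.068, Kit from -0.10 to 0.061, Arntl from -0.0032 to 0.0044, Tlr8 from -0.11 to 0.041 and Retnlg from -0.21 to 1.05. Against 9204 genes (4341 higher, 4863 lower), the fit to the 9 monocytic arrays gave 5584 with 2337 lower, quantile normalization 5241 with 1754 lower, the floor of 100 gave 5296 with 1681 lower, and array weights 14171 with 8266 lower. Median centring, which adds 0.185 to each change, gave 1379 lower, and leaving out dim features 2196 lower. Of at least 2-fold changes (643 higher, 135 lower), median centring gave 1120 higher and 76 lower, and array weights 230 lower. Leaving out 1 array in turn gave 4475 to 10640 genes, 2869 to 4844 higher and 1606 to 5796 lower, with 490 to 974 at least 2-fold higher and 95 to 260 at least 2-fold lower. The cause was not tested. Same-numbered arrays deviated together in replicates 1 and 3 (r = 0.46 and 0.486) but not in 2 (r = -0.041). Between unlike numbers r ran from -0.549 (naive replicate 3 and 6-week replicate 1) to 0.198. The numbers were therefore not taken to pair the samples. The replicate block gave 9860 genes, 4561 higher and 5299 lower. Naive replicate 3 and 6-week replicate 1 also held identical values in 1532 genes, against 285 to 732 in other pairs of the 6 arrays. Why was not tested. An intensity of 100 lies near the median of each of these 6 arrays (95.25 to 114), so raising lower values to 100 alters a large part of each array. Of genes at a level between 5 and 6, 33.3% were lower in the reported fit and 3.51% after quantile normalization.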
